A study of Mus musculus with 23 samples.

Results

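In F9, a line of mouse embryonal carcinoma cells that differentiates in retinoic acid, 9 genes were followed whose products bind retinoids, bring retinol into the cell or convert retinal: Crabp1, Crabp2, Rbp4, Stra6, Dhrs3, Rdh10, Aldh1a1, Aldh1a2 and Aldh1a3. Members were taken by gene symbol, and all 9 were found among the 36814 genes of the count table. Treated cells were kept in 1e-07 M all-trans retinoic acid (RA) for 6, 12, 24 or 48 h, with 2 mRNA libraries each. They were set against DMSO, the solvent of RA, at 0.001% for 24 or 48 h, with 1 library each, and against 4 untreated libraries at 0 h. Every group was the same unmodified line, grown on gelatine-coated plates. The series holds 23 samples, of which 14 are these mRNA libraries, 8 are ChIP libraries of retinoid receptors and 1 is total chromatin; the ChIP and chromatin samples were not used here.

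Retinol travels in blood bound to RBP4 and enters cells through the membrane receptor STRA6. RDH10 oxidizes retinol to retinal, DHRS3 reduces retinal back to retinol, and the ALDH1A enzymes oxidize retinal irreversibly to RA. In the cytosol RA is bound by CRABP1 and CRABP2, and CRABP2 hands it to RA receptors in the nucleus, which act with retinoid X receptors on direct repeats of a short DNA half-site. Several of these genes are known targets of RA in embryonic cells.

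The stretches before the start sites of the 3 members below are shown because Stra6 and Dhrs3 were high at every RA time whereas Crabp1 was high late. Each is the 250 bases before the most upstream annotated start from RefSeq on build GRCm38.p6, written 5′ to 3′ on the strand of the gene, with each GGGCGG in capitals, on whichever strand it lies. Stra6 is given at chr9:58128838-58129087, Dhrs3 at chr4:144892577-144892826 and Crabp1 at chr9:54764498-54764747, all on the plus strand.
Stra6: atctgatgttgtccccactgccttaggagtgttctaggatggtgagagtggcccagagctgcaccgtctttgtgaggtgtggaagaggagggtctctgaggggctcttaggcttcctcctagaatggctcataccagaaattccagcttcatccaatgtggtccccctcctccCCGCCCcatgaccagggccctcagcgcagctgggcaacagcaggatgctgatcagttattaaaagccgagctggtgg
Dhrs3: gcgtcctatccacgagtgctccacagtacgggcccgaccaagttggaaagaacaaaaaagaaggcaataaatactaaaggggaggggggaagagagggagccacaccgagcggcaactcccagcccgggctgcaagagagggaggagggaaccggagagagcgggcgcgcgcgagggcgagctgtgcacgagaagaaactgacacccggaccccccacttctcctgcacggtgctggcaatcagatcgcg
Crabp1: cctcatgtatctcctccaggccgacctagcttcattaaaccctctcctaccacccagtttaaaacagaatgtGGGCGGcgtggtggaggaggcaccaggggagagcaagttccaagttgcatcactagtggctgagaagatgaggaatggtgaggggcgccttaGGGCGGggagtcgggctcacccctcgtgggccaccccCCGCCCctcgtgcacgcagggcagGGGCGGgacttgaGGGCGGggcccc
The Crabp1 window held 5 matches to GGGCGG on either strand, the Stra6 window 1 and the Dhrs3 window 0, and 32.74% of the 32851 windows in the RefSeq table held at least 1. Over all annotated starts the 4 windows of Stra6 held 1, 1, 0 and 2 matches and the 3 of Dhrs3 held 0 each. The windows of Aldh1a1 held 0 and 0, those of Rbp4 0 and 2, and that of Aldh1a2 0. A link between these matches and the time of a change was not tested. Windows were given for 6 of the 9 members, 13 in all, and for the other members, Crabp2, Rdh10 and Aldh1a3, no sequence is shown. Direct repeats were searched on both strands for 4 half-sites, namely AGGTCA, its variant with a leading G (GGGTCA), its variant with TT inside (AGTTCA), and the one that has both changes (GGTTCA), with 1, 2 or 5 bases between the half-sites. They lay in 0 of the 13 member windows and in 0.4262% of all windows. That says only that these letters are not in these 250 bases.

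A single half-site, found in 38.64% of all windows, lay in 2 of the 13 member windows, 1 of Aldh1a1 and 1 of Rbp4. The window of the other annotated start of each of these genes held 0. The half-site is in capitals in the 30 bases below, which lie at chr19:20601907-20601936 (plus strand) for Aldh1a1 and chr19:38125357-38125386 (minus strand) for Rbp4. Both read TGACCC, the reverse complement of one of these half-sites, and begin 49 and 53 bases before the start site of their own window.
Aldh1a1: ccgatatgcaaaTGACCCttagtgcatgca
Rbp4: aagaataaatatTGACCCaaacagcaccac

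Levels below are in CPM, the count of a gene divided by its library's counts on genes in mega counts (M). The libraries held 7.08 to 10.9 M counts on genes. They fell into 2 sets by how many reads fell on no annotated feature, as a share of those on a gene or on no feature: 57.3 to 59.4% in set 1 and 52.5 to 53.8% in set 2. Set 1 held replicate 1 of 0 h and of each RA time and both DMSO libraries, and set 2 held the rest. Each RA time thus had 1 library in each set, whereas replicates 2, 3 and 4 of 0 h were all in set 2. The main fit has no term for the set, so set and treatment are partly mixed in the changes against 0 h. A change is a log2 fold change with an approximate standard error (SE), and a gene was called where edgeR's quasi-likelihood test gave a Benjamini-Hochberg adjusted p under 0.05 over 16155 tested genes. Nothing says that replicates came from separate cultures, so a p-value reflects how far these libraries vary, and that spread may be technical. Of the 9 members 8 passed the filter on low counts, and Rbp4 and Aldh1a1 passed it only through their 48 h libraries, so those had to differ. In summed CPM, 10 markers of embryonal carcinoma and pluripotent cells had 1659 to 2595 in RA at 48 h and 5184 to 6028 at 0 h, and 11 markers of primitive and parietal endoderm had 5016 to 6532 in RA at 48 h and 208 to 361 at 0 h. Their part in the results was not tested, and fewer cells of a type and less RNA per cell cannot be told apart in these bulk samples.

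**Figure D1:**
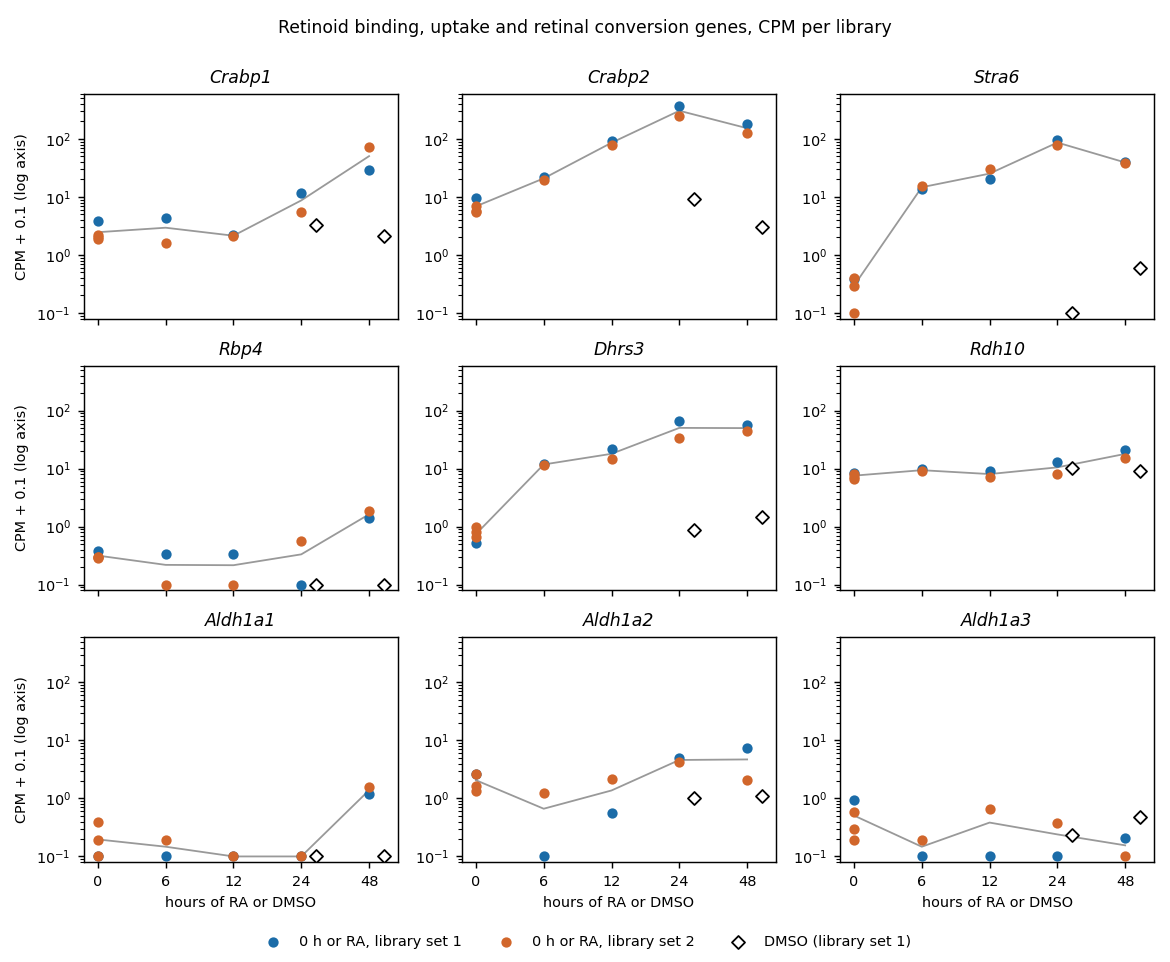
CPM plus 0.1 of each of the 9 members in each library, on a log axis, against hours of treatment. Filled points are RA or 0 h libraries coloured by library set, open diamonds are DMSO libraries and the grey line joins group means. Stra6, Dhrs3, Crabp2 and, by less, Rdh10 lie above their 0 h range at 6 h, and Aldh1a2 and Aldh1a3 lie below theirs. Crabp1 reaches 29.3 and 71.3 CPM at 48 h.

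Among the members, Stra6, Dhrs3 and Crabp2 were called higher than 0 h at 6, 12, 24 and 48 h of RA, and 0 members were called lower at any of these times. At 6 h this was 3 of 9 members called higher, against 1.47% of all tested genes called higher and 0.192% called lower. At 12 h it was 3 of 9 against 2.15% higher and 0.594% lower, and at 24 h 3 of 9 against 8.08% and 4.26%. At 48 h it was 5 of 9 against 17.5% and 12%, with Crabp1 and Rdh10 added. Aldh1a1 was called too, but it passed the filter on low counts only through that group and is not in this count. No member was lower by DESeq2 either, and by edgeR 0 were lower at an unadjusted p under 0.05 at these times or against DMSO. The median difference over all 9 members was 0.15, -0.13, 1.12 and 1.99 in log2 CPM (prior count 3) at 6, 12, 24 and 48 h, beside -0.03, 0.02, 0.09 and 0.16 over the tested genes. The 48 h median was the value of Aldh1a1, which had 10 and 16 counts there and passed the filter only through that group. That value depends on few counts and on the prior count.

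Stra6 (ENSMUSG00000032327), the retinol uptake receptor, showed the largest change among the members called at 6 h. It had 0.283, 0.190, 0.304 and 0 CPM in the 4 libraries at 0 h, from 2, 2, 3 and 0 counts. With RA it had 13.6 and 15.5 CPM at 6 h, 20.6 and 29.6 at 12 h, 94.9 and 78.0 at 24 h and 40.1 and 38.1 at 48 h. Every RA library lay above every 0 h library, and the 24 h libraries were the highest. The log2 change against 0 h was 6.22 ± 0.44 (SE) at 6 h, 6.96 ± 0.43 at 12 h, 8.66 ± 0.44 at 24 h and 7.47 ± 0.43 at 48 h. The edgeR adjusted p was 8.6e-05, 2.21e-05, 2.59e-06 and 5.35e-06 at these times. In DMSO Stra6 had 0 counts at 24 h and 0.502 CPM at 48 h.

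Rbp4 (ENSMUSG00000024990), the carrier of retinol in blood, was scarcely counted before 48 h. It had 12 and 19 counts, or 1.33 and 1.74 CPM, in RA at 48 h, against 2 counts in each of the 4 libraries at 0 h, or 0.190 to 0.283 CPM. Both 48 h libraries lay above all others, but the log2 change of 2.62 ± 0.99 was not called (edgeR adjusted p = 0.0712). It was called with only the groups compared (2.64, edgeR adjusted p = 0.00896) and with a term for the library set (2.62, 0.0203), and was 2.96 in set 2 alone. Rbp4 passed the filter on low counts only through its 48 h libraries, so they had to differ. The 2 DMSO libraries had 0 counts.

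Dhrs3 (ENSMUSG00000066026), the enzyme that turns retinal back into retinol, had 0.424, 0.569, 0.708 and 0.873 CPM at 0 h. It had 11.9 and 11.5 CPM at 6 h of RA, 21.4 and 14.5 at 12 h, 67.3 and 33.5 at 24 h and 56.2 and 43.7 at 48 h. The RA libraries all lay above the 0 h libraries, and at each RA time the set 1 library was the higher one. The log2 change against 0 h was 4.17 ± 0.37 at 6 h, 4.74 ± 0.36 at 12 h, 6.15 ± 0.37 at 24 h and 6.08 ± 0.37 at 48 h, with edgeR adjusted p of 0.000369, 7.25e-05, 6.53e-06 and 6.8e-06. Without replicate 1 of 24 h the 24 h change was 5.50 (edgeR adjusted p = 2.88e-05).

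Rdh10 (ENSMUSG00000025921), which makes retinal from retinol, was already counted in every library and changed least among the 6 members called at 48 h. It had 20.5 and 15.3 CPM in RA at 48 h, against 8.48, 7.12, 6.48 and 7.86 CPM at 0 h. Both 48 h libraries lay above the 0 h range. The log2 change was 1.10 ± 0.27 (edgeR adjusted p = 0.0115), and it was not called without replicate 1 of 48 h (0.80, adjusted p = 0.147). At 6, 12 and 24 h the changes of 0.35 ± 0.28, 0.08 ± 0.28 and 0.38 ± 0.28 were not called. The 6 h libraries, at 9.79 and 8.85 CPM, still lay above the 0 h range.

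The 3 aldehyde dehydrogenases that make RA from retinal had few counts, and 1 of them was called, at 48 h. Aldh1a1 (ENSMUSG00000053279) had 10 and 16 counts in RA at 48 h, or 1.11 and 1.46 CPM, against 0, 1, 0 and 3 counts at 0 h. It had 1 count in all at 6 h and 0 at 12 and 24 h. The log2 change at 48 h was 3.34 ± 1.02 (edgeR adjusted p = 0.0384), for a gene that passed the filter only through these 2 libraries. That call was lost without replicate 1, 2 or 3 of 0 h (adjusted p = 0.0604, 0.0925 and 0.0828) and without replicate 1 or 2 of 48 h (0.109 and 0.142), and the change was 4.59 without replicate 4 of 0 h. DESeq2 gave it no adjusted p. With the replicate block the call held at a change of 4.20. The close paralog Aldh1a7 had 2 and 10 counts at 48 h and 0, 2, 0 and 6 at 0 h, so how reads were shared between the pair is uncertain.

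Aldh1a2 (ENSMUSG00000013584), the main RA-making enzyme of the early embryo, had 7.20 and 2.01 CPM in RA at 48 h and 4.91 and 4.10 CPM at 24 h. It had 2.54, 1.52, 2.53 and 1.26 CPM at 0 h. At 6 h it had 0 and 1.13 CPM. Both 24 h libraries lay above the 0 h range and both 6 h libraries below it, and at 48 h 1 library lay above it and 1 inside it. Its log2 change was -1.71 ± 1.00 at 6 h, -0.63 ± 0.92 at 12 h, 1.08 ± 0.83 at 24 h and 1.07 ± 0.84 at 48 h, and none was called by edgeR (adjusted p of 0.708, 0.847, 0.454 and 0.375). The 6 h change ranged over the alternatives from -7.24 without replicate 2 of 6 h, where the library left had 0 counts and the value is no bound, to -0.65 in set 2 alone. Aldh1a3 (ENSMUSG00000015134) had 29 counts over the 14 libraries, at most 0.848 CPM in any, and was not tested.

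The genes for the RA-binding proteins of the cytosol differed in timing. Crabp2 (ENSMUSG00000004885), whose product delivers RA to its receptors, had 9.46, 5.31, 6.78 and 5.53 CPM at 0 h. With RA it had 22.3 and 19.2 CPM at 6 h, 93.3 and 78.1 at 12 h, 365 and 247 at 24 h and 180 and 126 at 48 h. The RA libraries all lay above the 0 h range, with the 24 h libraries highest. The log2 change against 0 h was 1.65 ± 0.29 at 6 h (edgeR adjusted p = 0.0163), 3.65 ± 0.28 at 12 h (7.53e-05), 5.40 ± 0.30 at 24 h (4.41e-06) and 4.35 ± 0.29 at 48 h (1.15e-05). The 6 h call was lost without replicate 2, 3 or 4 of 0 h (adjusted p = 0.0692, 0.0549 and 0.0556), without replicate 1 or 2 of 6 h (0.186 and 0.0835), and with only the 2 groups in the fit (0.0602).

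Crabp1 (ENSMUSG00000032291), which also binds RA in the cytosol, stayed near its 0 h level through 12 h. It had 3.67, 1.90, 2.12 and 1.75 CPM at 0 h. With RA it had 4.18 and 1.51 CPM at 6 h, 2.10 and 1.99 at 12 h, 11.8 and 5.41 at 24 h and 29.3 and 71.3 at 48 h. The 6 and 12 h libraries overlapped the 0 h range, and all 24 and 48 h libraries lay above it. The log2 change was 4.26 ± 0.52 at 48 h (edgeR adjusted p = 0.0003), and 3.56 without replicate 2 of 48 h (adjusted p = 0.00388). At 24 h it was 1.77 ± 0.52 and not called (adjusted p = 0.0506). That value was under 0.05 by DESeq2 (adjusted p = 0.0151), with no filter or another filter on low counts (0.0424 and 0.0464), with the set term (0.0229), in set 2 alone (0.0358), without replicate 1 of 0 h (0.0358) and without replicate 2 of 24 h (0.0302). Without replicate 1 of 24 h it was 1.05 (adjusted p = 0.387), and with the replicate block it was not called. Where 1 RA library was left, as in set 2 alone, it was assumed to vary like the other groups.

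**Figure D2:**
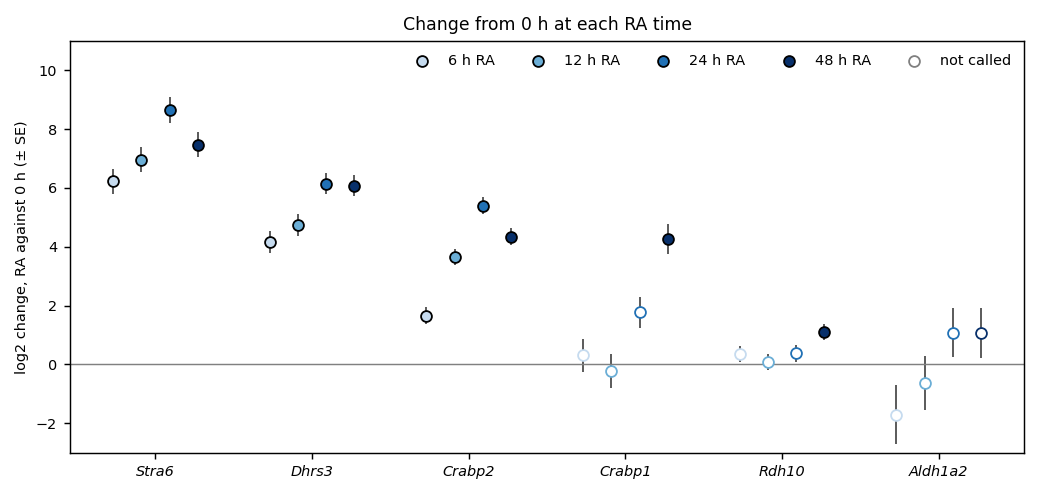
Log2 change of RA against 0 h with its SE for 6 members, by hours of RA, from the edgeR fit of 14 libraries, with filled points for called changes. Stra6 lies highest at each time, and Crabp1 and Rdh10 are called at 48 h, at 4.26 and 1.10.

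Within each library set the called changes had the same sign. At 6 h the log2 difference in CPM (prior count 3) was 4.53 in set 1 and 5.09 in set 2 for Stra6, 4.04 and 3.52 for Dhrs3, and 1.21 and 1.66 for Crabp2. At 48 h it was 2.89 in set 1 and 5.00 in set 2 for Crabp1, and 1.24 and 1.06 for Rdh10. The Crabp1 difference at 48 h was thus larger in set 2, with 1 RA library in each set. For Aldh1a2 at 48 h it was 1.39 in set 1 and 0.20 in set 2.

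RA was also set against DMSO of the same hour, which had the solvent and the same hours of treatment. At 24 h Stra6, Dhrs3 and Crabp2 were called higher, 3 of 9 members against 1.29% of tested genes called higher and 0.594% called lower. At 48 h Crabp1 was called as well, 4 of 9 against 4.8% and 3.16%, and at both times 0 members were called lower. Each DMSO group has 1 library, in set 1, which was assumed to vary like the other groups. The RA groups hold both sets, so set and treatment are partly mixed in these contrasts. Within set 1 the log2 difference in CPM (prior count 3) at 48 h was 5.81 for Crabp2, 5.62 for Stra6 and 5.06 for Dhrs3. For Crabp1 it was 3.67 and for Rdh10 1.16.

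Crabp2 had 365 and 247 CPM in RA and 8.92 CPM in DMSO at 24 h, a log2 change of 4.94 ± 0.53 (edgeR adjusted p = 0.00208). At 48 h it had 180 and 126 CPM in RA and 2.88 CPM in DMSO, a change of 5.55 ± 0.56 (adjusted p = 0.00133). Dhrs3 had 67.3 and 33.5 CPM in RA and 0.787 CPM in DMSO at 24 h, a change of 5.83 ± 0.67 (adjusted p = 0.00296), which was 5.18 without replicate 1 of RA at 24 h. At both hours and for both genes the RA libraries lay above the DMSO library.

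Dhrs3 at 48 h had 56.2 and 43.7 CPM in RA and 1.38 CPM in DMSO, a log2 change of 5.00 ± 0.63 (edgeR adjusted p = 0.00245). Stra6 at 24 h had 1706 counts in RA and 0 in DMSO, so it was at least 218-fold higher in RA against a floor of 3 counts in the DMSO library (adjusted p = 0.00104). Such floors cover counting error only. At 48 h its log2 change was 6.08 ± 0.72 (adjusted p = 0.00203). Crabp1 at 48 h had 29.3 and 71.3 CPM in RA and 2.01 CPM in DMSO, a change of 4.47 ± 0.95 (adjusted p = 0.0212) that was not called without replicate 2 of RA at 48 h (3.76, adjusted p = 0.0706).

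Rdh10 had 20.5 and 15.3 CPM in RA and 9.03 CPM in DMSO at 48 h, and its log2 change of 0.82 ± 0.41 was not called (edgeR adjusted p = 0.244), though it was with the set term (1.01, adjusted p = 0.0295). At 24 h its RA libraries lay on either side of the DMSO library, at 12.8 and 8.11 against 10.2 CPM. Rbp4 and Aldh1a1 had 0 DMSO counts at 48 h. Against a floor of 3 counts in that library they were at least 4.13-fold and at least 3.46-fold higher in RA, without a call. Both genes passed the filter on low counts only through RA at 48 h, so those libraries had to differ. Aldh1a2 had changes of 2.12 ± 1.4 at 24 h and 2.02 ± 1.39 at 48 h, neither called.

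**Figure D3:**
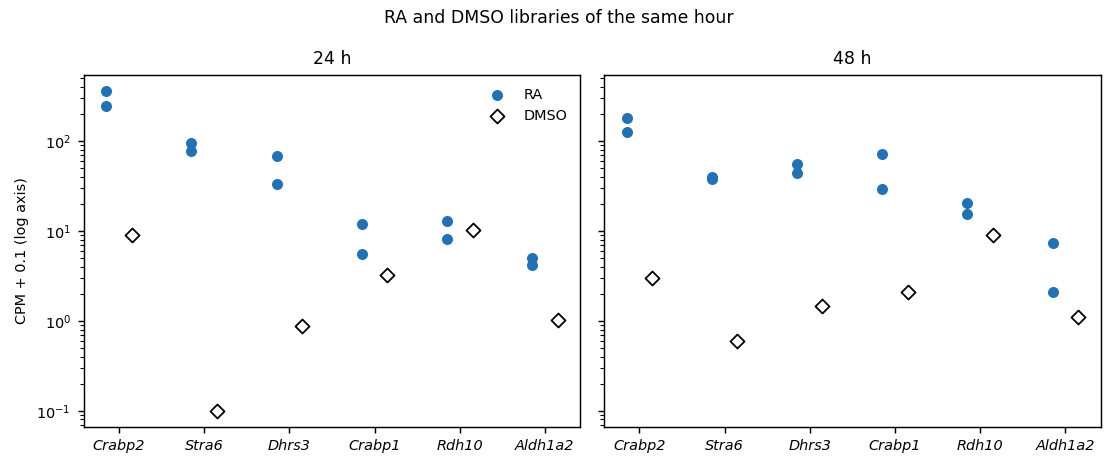
CPM plus 0.1 of Crabp2, Stra6, Dhrs3, Crabp1, Rdh10 and Aldh1a2, on a log axis, in RA libraries (filled) and the DMSO library (open diamond) of the same hour, at 24 and 48 h. Crabp2 has 365 and 247 CPM in RA and 8.92 CPM in DMSO at 24 h, and Rdh10 lies close together at that hour.

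DMSO itself was compared with 0 h by pooling both DMSO libraries. Both are in set 1, whereas at 0 h only replicate 1 is, so set and treatment are partly mixed here too. EdgeR called 0 of 9 members and 0% of tested genes; 0 members and 1274 genes had an unadjusted p under 0.05, and DESeq2 called 0 members and 1 gene. Crabp2 had 8.92 CPM in DMSO at 24 h and 2.88 at 48 h, against 5.31 to 9.46 CPM at 0 h, a log2 change of -0.38 ± 0.33. The DMSO libraries of Rdh10, at 10.2 and 9.03 CPM, lay above the 0 h range of 6.48 to 8.48 CPM, with a change of 0.40 ± 0.28. Those of Aldh1a2, at 0.918 and 1.00 CPM, lay below its 0 h range of 1.26 to 2.54 CPM, with a change of -0.99 ± 0.96. Those of Rbp4 had 0 counts, below its 0 h range, but that range was 2 counts in each library and thus near the floor. Within set 1, with 1 library at 0 h, the log2 difference in CPM (prior count 3) was -0.85 for Crabp2. For Rdh10 it was 0.18 and for Aldh1a2 -1.16.

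Neighbouring RA times were compared to place the steps. By the group means, Crabp2 had 6.79% of its 24 h level at 6 h and 28.0% at 12 h, Stra6 16.9% and 29%, and Dhrs3 23.2% and 35.6%. At 48 h Crabp2 had 50.0% and Stra6 45.2% of the 24 h level, whereas Dhrs3 had 99.1%. Crabp1 at 24 h had 17.1% of its 48 h level and Rdh10 58.4%. These percents do not subtract the 0 h level. Rdh10 averaged 7.48 CPM already at 0 h, 10.4 at 24 h and 17.9 at 48 h. EdgeR called 0 of 9 members from 6 to 12 h (0% of tested genes called higher), 0 from 12 to 24 h (0.0124%) and 0 from 24 to 48 h (0.489% higher and 0.217% lower). Members with an unadjusted p under 0.05 numbered 1, 4 and 5 over these steps, beside 1.78, 10.6 and 13.8% of tested genes. DESeq2 called 1, 2 and 2 members, beside 0.0387, 2.22 and 4.31% of the genes it tested.

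With the replicate number as a block some steps of members were called, and more genes overall. The block took only libraries numbered 1 or 2 outside DMSO, and since number 1 is set 1 and number 2 is set 2 throughout, pairing and set cannot be told apart. From 6 to 12 h it gave 1 of 9 members called higher, against 0.0784% of tested genes higher and 0.0196% lower. From 12 to 24 h it gave 3 higher, against 6.46% and 5.3%. Crabp2 at 12 h over 6 h had a log2 change of 2.00 ± 0.34 (edgeR adjusted p = 0.937) without the block and 2.00 ± 0.16 (0.000195) with it. At 24 h over 12 h Crabp2 had 1.75 ± 0.33 (0.11) without the block and 1.72 ± 0.15 (0.000154) with it. Stra6 had 1.70 ± 0.38 (0.169) without the block and 1.69 ± 0.19 (0.000693) with it, and Dhrs3 1.4 ± 0.38 (0.221) and 1.36 ± 0.22 (0.00364).

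From 24 to 48 h the block gave 3 of 9 members called higher and 2 lower, against 9.63% of tested genes higher and 7.18% lower; Aldh1a1, 1 of the 3, passed the filter only through 48 h. Crabp2 had a log2 change of -1.05 ± 0.33 (edgeR adjusted p = 0.178) without the block and -1.02 ± 0.14 (0.00052) with it, and Stra6 -1.19 ± 0.38 (0.185) and -1.17 ± 0.19 (0.0013). Crabp1 had 2.49 ± 0.62 (0.108) without the block and 2.63 ± 0.55 (0.0108) with it, and Rdh10 0.73 ± 0.32 (0.349) and 0.77 ± 0.23 (0.035). The Crabp1 change ranged from 1.79 without replicate 2 of 48 h to 3.73 in set 2 alone. Aldh1a1, with 26 counts at 48 h and 0 at 24 h, was at least 8.63-fold higher against a floor of 3 counts over the 24 h group (adjusted p = 0.149, and 0.0161 with the block). Dhrs3 had -0.07 ± 0.37 (adjusted p = 0.971), and 0.02 with the block. Within set 1 the 48 over 24 h difference in log2 CPM was -1.02 for Crabp2 and -1.24 for Stra6, and within set 2 it was -0.97 and -1.03. For Crabp1 it was 1.29 in set 1 and 3.64 in set 2.

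**Figure D4:**
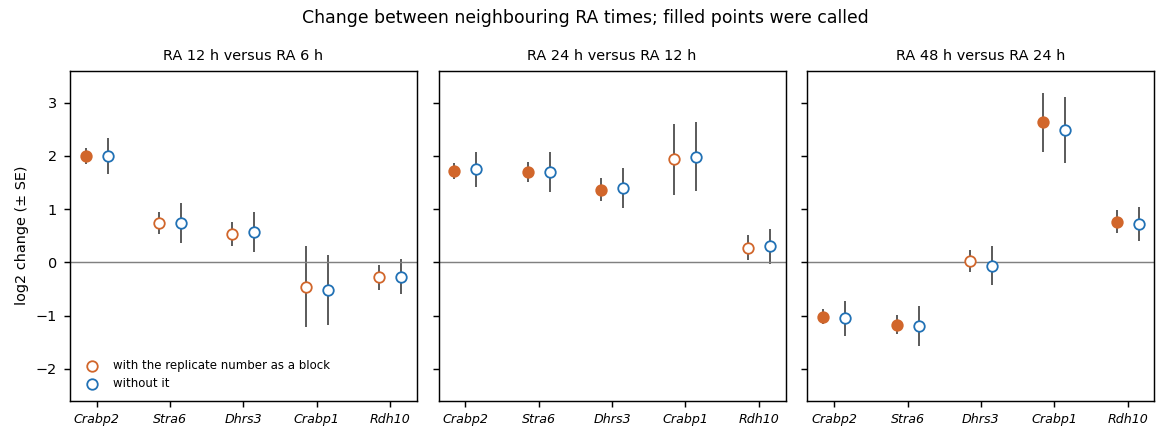
Log2 change with its SE between neighbouring RA times, without and with the replicate block, in the edgeR fits. From 24 to 48 h Crabp2 and Stra6 lie below 0, at -1.05 and -1.19 without the block, and Crabp1 lies above it, at 2.49.

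Other genes of retinoid handling gave the surroundings of these changes. Of 66 such genes in 6 lists 39 were tested, and 5, 7, 7 and 10 were called higher at 6, 12, 24 and 48 h against 0 h, with 0, 0, 2 and 4 lower. Of all tested genes 1.47, 2.15, 8.08 and 17.5% were called higher and 0.192, 0.594, 4.26 and 12% lower. With the replicate block the counts were 9, 7, 7 and 14 higher and 0, 1, 5 and 9 lower, beside 3.68, 5.48, 14.7 and 24.3% higher and 1.53, 4.19, 13.6 and 21.9% lower of all genes. The 3 genes of RA breakdown, the cytochromes Cyp26a1, Cyp26b1 and Cyp26c1, were called higher at all 4 times. Cyp26a1 had 228 CPM in RA at 48 h and 4.43 CPM at 0 h on average, a log2 change of 5.51 ± 0.51 (edgeR adjusted p = 6.24e-05). Cyp26c1 changed by 5.40 ± 0.75 (adjusted p = 0.000611), and Cyp26b1, with 452 counts at 48 h and 0 at 0 h, was at least 285-fold higher against a floor of 3 counts over the 0 h group.

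Among retinol binding, uptake and ester genes 7 of 11 were tested, and 1, 2, 2 and 2 were called higher. Ttr, transthyretin, which binds RBP4 in blood and is also a visceral endoderm marker, had 29 and 339 counts in RA at 48 h and 1 count in all at 0 h. Its ratio of pooled CPM was 697, with a 95% counting interval of 124 to 27586. That interval leaves out the spread between the 48 h libraries, at 3.21 and 31.0 CPM. DESeq2 did not call Ttr at 48 h (adjusted p = 0.157). Ttr passed the filter on low counts only through its 48 h libraries, so it had to differ, and it is 1 of the genes counted at 48 h. The 8 visceral endoderm markers, Ttr among them, summed to 130 to 135 CPM in RA at 48 h and 1.71 to 7.47 CPM at 0 h. On average at 48 h Cubn had 88.6 CPM, Hnf4a 19.4 and Ttr 17.1, while Afp, Apoa4 and Apoa1 had 0.603, 0.395 and 0.137. The part of visceral endoderm in the Rbp4 and Ttr values was not tested.

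Of 20 other retinol and retinal oxidoreductases and carotene oxygenases 7 were tested, and edgeR and DESeq2 each called 0 at any of the 4 times; at an unadjusted p under 0.05 edgeR had 0 higher and 1 lower at 24 h, 1 and 1 at 48 h, and 0 at 6 and 12 h. Of 16 other aldehyde dehydrogenases 14 were tested, and at 48 h 3 were called higher and 2 lower, shares near the 17.5% and 12% of all tested genes. These included Aldh3a2, which acts on fatty aldehydes, at 124 CPM in RA and 31.0 CPM at 0 h (log2 change 1.85 ± 0.16, edgeR adjusted p = 4.22e-05). Aldh5a1 changed by 1.4 ± 0.31 and Aldh1l2 by 1.23 ± 0.21. Of the 6 receptors Rarb was called higher at all 4 times, by 6.01 ± 0.29 at 48 h, and Rarg (-2.06 ± 0.27) and Rxrg (-4.28 ± 0.64) were called lower at 48 h. Of 10 fatty acid binding proteins of the same family as Crabp1 and Crabp2, 2 were tested, and Fabp5 was called at 48 h (1.15 ± 0.38, adjusted p = 0.0452). The Fabp5 call was lost under 8 of 15 alternatives, with adjusted p up to 0.204: without replicate 1, 3 or 4 of 0 h, without either 48 h library, with no filter, with only the groups compared and in set 2 alone.

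Genes like each called member were ranked by Pearson correlation of log2 CPM over the 14 libraries among 11094 genes with at least 5 CPM on average. Among the highest for Stra6 were Hoxa4 (0.987), Zfp703 (0.983) and Cyp26b1 (0.982). For Dhrs3 they were Fbln1 (0.989), Rarb (0.987) and Gfra1 (0.986). For Crabp2 they were Gpx7 (0.974), Heg1 (0.973) and Ehd2 (0.972), and Crabp1 had Dlk1 (0.973) and Cmtm3 (0.956). Among those for Rdh10 were Plod3 (0.945) and Rnf157 (0.936), and for the thinly counted Aldh1a1 Arhgap17 (0.945), Tpm1 (0.942) and Arfgef1 (0.933). All 14 libraries share the time course and the 2 sets, and these values describe it without a test.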

How the data were processed

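The mRNA files hold raw read counts per Ensembl gene, deposited by the authors without normalization, 1 table per library. The submitters' processing notes name TopHat2 2.0.7 along with HTSeq and DESeq, and build mm9; options, strand setting and annotation are not given in the sources used here. Entries outside genes held 72.5 to 76.8% of each table and were left out. CPM is the count over the library's counts on genes in mega counts.

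A quasi-likelihood model of the 14 libraries was fitted in edgeR 4.0.16 (R 4.3.3) with 1 term per group, TMM scaling (0.929 to 1.10), robust estimation and the default low-count filter by group. Tests were two-sided and adjusted by Benjamini-Hochberg. SE is the absolute log2 change over the square root of F. The fit was also run on simulated counts that held no difference between library sets, so that run says nothing of set effects. Plots were drawn with matplotlib 3.10.9. Members and lists were chosen with earlier results of these data known. Named genes are all 9 members, the 3 genes most like each called member, and up to 3 called genes per list with the largest change at 48 h; 3 genes that this rule names are not reported here.

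Replicates differed by more than counting error (chi-square per degree of freedom 10.1 to 61.9). Number 1 minus number 2 differences correlated between groups (median r 0.687 and range 0.66 to 0.792 in 10 pairs of groups), but number and library set coincide. Alternatives were RLE scaling, DESeq2 1.42.0, no filter, at least 1 CPM in 4 libraries, only the groups compared, the replicate block, a set term, set 2 alone, an absolute log2 change of at least 1, CPM on TMM-scaled sizes, and each library left out. Promoter windows came from RefSeq (GRCm38.p6), a later build than the counts.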

Additional observations from a re-analysis of the deposited data

Results flagged for a closer look

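Rbp4 in the 4 untreated libraries at 0 h was picked out because 1 library stood apart: the gap between the highest CPM (0.283) and the next, divided by the range, was 0.864, above Dixon's 95% critical value for 4 samples. Each of the 4 libraries had 2 counts of Rbp4, so the CPM values differ only by library depth. Chance picks out about 1 in 20 groups.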

How the results depend on the processing

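The calls of Stra6 and Dhrs3 against 0 h at all 4 times, of Crabp2 at 12, 24 and 48 h and of Crabp1 at 48 h held under all 15 alternatives each. Against DMSO the calls of Stra6, Dhrs3 and Crabp2 held under all 9. Between RA times the count of members called moved from 0: from 6 to 12 h it was 1 higher by DESeq2, the replicate block or the set term. From 12 to 24 h it was 2 by DESeq2, 1 with no filter, and 3 with the block or the set term. From 24 to 48 h it was 1 higher and 1 lower by DESeq2, 3 and 2 with the block, 1 higher in set 2 alone, and 2 and 2 with the set term. Over these steps the genes called in all were 5, 317 and 653 by DESeq2 and 15, 1801 and 2573 with the block, against 0, 2 and 114. The block changed no other call of a member. Uncalled changes turned sign as follows. In set 2 alone Crabp1 had -0.35 at 6 h and 0.0209 at 12 h, Rdh10 -0.037 and Aldh1a2 0.20 at 12 h, and Dhrs3 0.39 at 48 over 24 h; with the set term Rdh10 had -0.0355 at 12 h, and with the replicate block Dhrs3 had 0.0185 at 48 over 24 h. With 1 library left out Crabp1 ranged over -0.65 to 0.89 at 6 h and -0.35 to 0.0857 at 12 h, Rdh10 over -0.12 to 0.26 at 12 h and -0.0398 to 0.72 at 24 h, Aldh1a2 over -2.03 to 0.0356 at 12 h and -0.20 to 1.79 at 48 h, and Dhrs3 over -0.50 to 0.58 at 48 over 24 h. The cause was not tested. Genes called in all moved from 268 to 107 at 6 h without replicate 2 of 6 h, from 444 to 167 at 12 h without replicate 1 of 12 h and from 1993 to 712 at 24 h without replicate 1 of 24 h, and from 4766 to 2731 at 48 h without replicate 1 of 48 h. With the set term they were 906, 2050, 4689 and 7881. Against DMSO they moved from 305 to 97 at 24 h without replicate 1 of RA and from 1286 to 406 at 48 h without replicate 2 of RA, and to 1687 and 3892 with the set term. Without replicate 1 or 2 of 48 h Rxrg had -5.20 and -3.63 and Ttr 9.40 and 6.29, and Ttr had 10.18 without replicate 2 of 0 h. On TMM-scaled sizes 43 of 45 member levels with an SD moved by no more than 1 SD, and the 18 of single DMSO libraries stayed within their 95% binomial intervals; Stra6 at 48 h became 35.9 CPM and Dhrs3 at 6 h 12.2 CPM. Depth limits Rbp4, Aldh1a1 and Aldh1a3, which had 48, 31 and 29 counts over 14 libraries.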
